A study of Mus musculus with 18 samples.

Results

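Inducible oxidant and IL-22 response genes of the gut epithelium were examined in the ileum, the last segment of the small intestine, of mice that had received a bone marrow transplant. The set held 10 genes, listed by symbol: Nos2, Duox2, Duoxa2, Lcn2, Pigr, Saa1, Saa3, Socs3, Il22ra1 and Stat3. A gene was measured where the array had a probe set, a group of probes read as 1 value, that the platform annotation assigned to that symbol alone. This held for 8 of the 10 genes, out of 22180 genes measured in all. Duoxa2 shared its probe set with Duoxa1, and Saa1 shared its probe set with Saa2, so no value is given for Duoxa2 or Saa1.

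IL-22 is a cytokine of lymphoid cells that acts on epithelium. It binds a receptor made of Il22ra1 and Il10rb, which activates the transcription factor STAT3, and STAT3 in turn induces its own inhibitor Socs3 and a set of antimicrobial and barrier genes. Epithelial cells also meet microbes with oxidants, namely nitric oxide made by Nos2 and hydrogen peroxide released into the lumen by Duox2, and with secreted products such as the iron-chelator binder Lcn2, serum amyloid A and antibody carried across the cell by Pigr.

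All 18 mice were B10.BR recipients aged 8 to 12 weeks at transplant, given 11 Gy of total body irradiation on the day before they received 5000000 T cell-depleted marrow cells from C57Bl/6 donors. Of these, 9 received marrow only, and the other 9 also received 2000000 purified allogeneic T cells, a model in which graft-versus-host disease (GvHD) develops. Each arm was divided between daily gavage of indole-3-carboxaldehyde (ICA), a microbial product of tryptophan that binds the aryl hydrocarbon receptor, at a dose of 150 mg/kg, and gavage of its vehicle (DMSO, PEG400 and citric acid). The ileum was taken on day 21, from 9 mice with marrow only (4 on vehicle, 5 on ICA) and 9 with T cells (4 on vehicle, 5 on ICA), with 1 array for each. No mouse was left without irradiation or transplant, so every difference below is between transplanted mice.

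Values are log2 expression values, so a difference of 1 is a doubling. The array medians lay between 6.47 and 6.51, and the arrays correlated pairwise, across genes, with r between 0.978 and 0.993. A list of 12 epithelial marker genes had a mean between 11.20 and 11.35 in all 18 mice, and ileal markers had a mean between 9.53 and 10.85. In earlier work on these data 3 arrays stood apart, by a criterion not restated here. In the marrow-only arm these were mouse 3 on vehicle and mouse 1 on ICA, and in the T cell arm mouse 1 on ICA. Their median correlations with the other arrays, 0.9864, 0.9859 and 0.9857 in that order, lay inside the range of the remaining arrays, 0.9836 to 0.9884. Correlation thus did not set them apart, and results that differ without them are given both ways. Marrow-only vehicle mouse 3 had the lowest value of its group for 7 of the 8 measured genes, and marrow-only ICA mouse 1 for 6 of 8. Leaving out the lowest mouse raises the mean of its group. A larger fall without these arrays is therefore not separate support for that fall.

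With T cells in the graft, Nos2, Socs3 and Stat3 were lower among mice given ICA, and Pigr was lower among mice given vehicle. Of the 8 measured genes, 1 passed the threshold in mice given vehicle (limma's moderated test, p adjusted over all genes, under 0.05), where 1.47% of all genes passed, and 3 passed in mice given ICA, where 3.12% of all genes passed. All 4 of these calls were falls, which made up 0.681% of all genes under vehicle and 2.07% under ICA, and no measured gene of the set rose past the threshold. ICA against vehicle gave no call for any of the 8 genes, with or without T cells. A contrast that averaged the T cell difference over vehicle and ICA, chosen after the data were seen, gave 5 falls among the 8 (Nos2, Duox2, Pigr, Socs3 and Stat3), where 7.21% of all genes passed and 3.62% fell.

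**Figure D1:**
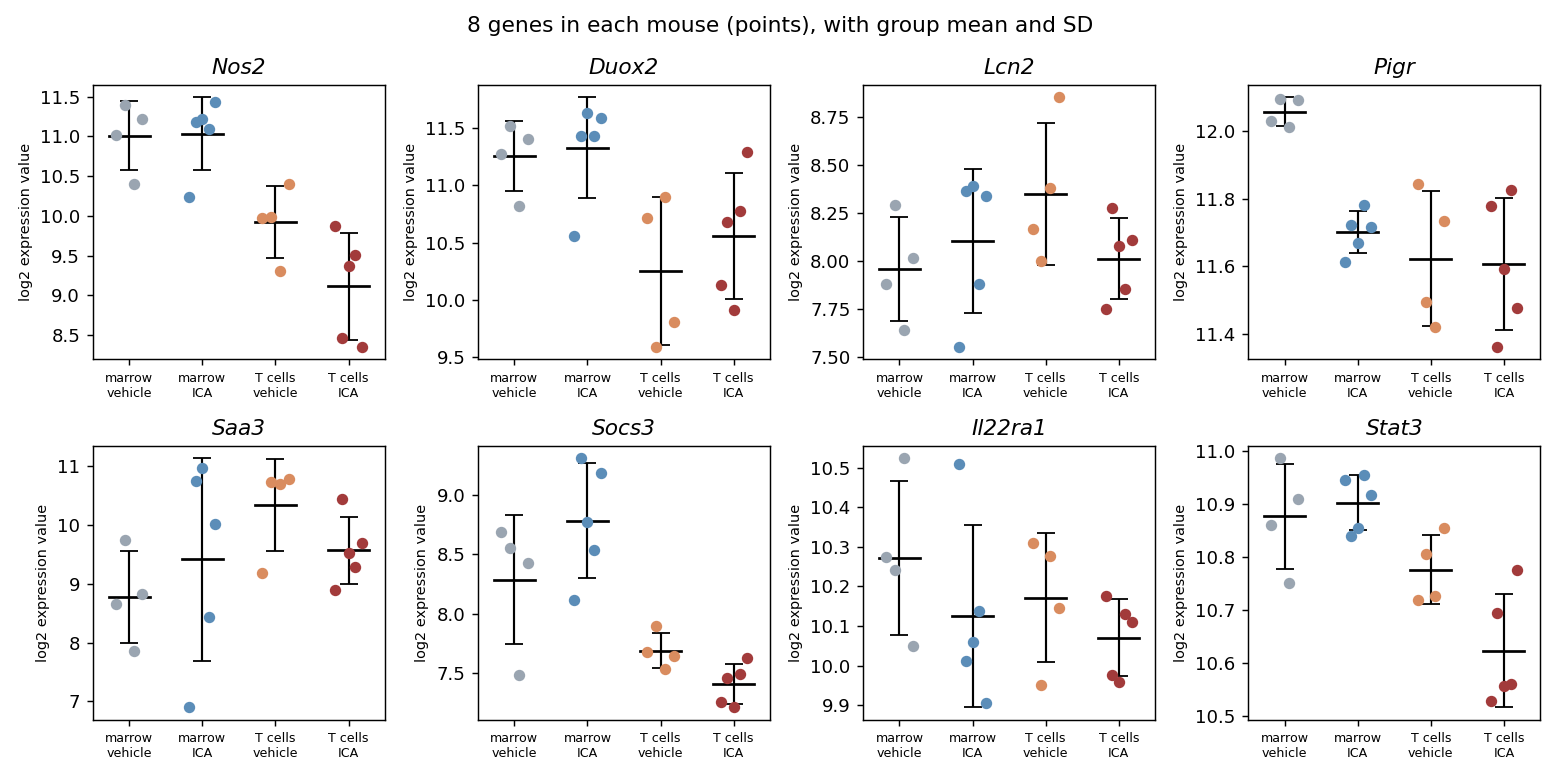
The log2 expression value (vertical axes, 1 scale per gene) of the 8 measured genes is plotted for every mouse in the 4 groups along the horizontal axis, with horizontal bars at the group mean and error bars of 1 SD. Nos2 and Socs3 are lowest on average in T cell mice on ICA, Pigr sits highest in marrow-only mice given vehicle, and Il22ra1 overlaps across all 4 groups.

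The receptor subunit Il22ra1, which gives epithelium its response to IL-22, had nearly the same level in every group. It read 10.27, 10.24, 10.52 and 10.05 in the 4 marrow-only mice given vehicle and 10.51, 10.01, 10.06, 10.14 and 9.91 in the 5 given ICA. In T cell mice it read 10.31, 9.95, 10.28 and 10.15 with vehicle and 10.18, 9.98, 9.96, 10.13 and 10.11 with ICA. All 4 groups overlapped. The highest values, 10.52 and 10.51, were those of marrow-only vehicle mouse 3 and marrow-only ICA mouse 1, which are among the arrays that stood apart. The T cell difference was -0.10 ± 0.12 (SE) in mice given vehicle, with a 95% interval from -0.34 to 0.14, and -0.05 ± 0.10 in mice given ICA, with an interval from -0.27 to 0.16. Its partner subunit Il10rb averaged 9.50 ± 0.10 (SD, n = 4) without and 9.57 ± 0.04 (SD, n = 4) with T cells under vehicle.

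Stat3, the transcription factor below the receptor, was lower in T cell mice when ICA was given. Marrow-only mice given vehicle read 10.86, 10.99, 10.75 and 10.91, and those given ICA read 10.95, 10.84, 10.85, 10.96 and 10.92. The T cell mice given vehicle read 10.72, 10.80, 10.72 and 10.85, and those given ICA read 10.53, 10.69, 10.56, 10.56 and 10.78. Every T cell mouse given ICA was below every marrow-only mouse given ICA, a pattern that 2.17% of all genes showed, while the vehicle groups overlapped. The fall under ICA was 1.21-fold, a log2 difference of -0.28 ± 0.06 (limma adjusted p = 0.0142), and the vehicle difference of -0.10 ± 0.07 did not pass (limma adjusted p = 0.602). A model of both ICA groups alone left the same difference short of the threshold, at a limma adjusted p of 0.0743. The ICA and vehicle differences were not shown to differ from each other (interaction -0.18 ± 0.09, limma adjusted p = 0.763).

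Socs3, the inhibitor that STAT3 induces to limit its own signal, showed a larger fall. Its values were 8.69, 8.55, 7.48 and 8.43 in marrow-only mice given vehicle and 8.12, 9.31, 8.77, 8.54 and 9.19 in marrow-only mice given ICA. They were 7.67, 7.89, 7.53 and 7.65 in T cell mice given vehicle and 7.25, 7.45, 7.21, 7.49 and 7.62 in T cell mice given ICA. The highest T cell mouse was therefore below 8 of the 9 marrow-only mice, the exception being marrow-only vehicle mouse 3, the lowest of its group. In mice given ICA Socs3 fell 2.61-fold, by 1.38 ± 0.21 on the log2 scale (limma adjusted p = 0.000640), with no overlap between the groups, a pattern that 2.17% of all genes showed in this direction. In mice given vehicle the difference of -0.60 ± 0.23 did not pass (limma adjusted p = 0.234), but without marrow-only vehicle mouse 3 it was -0.87 and passed (limma adjusted p = 0.0350). A second Socs3 probe set differed by -1.05 ± 0.19 under ICA and by -0.36 ± 0.21 under vehicle, with adjusted p of 0.00354 and 0.522 when every probe set was tested.

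The STAT motif, searched as TTCNNNGAA on both strands of windows from 250 bases before to 50 bases after a transcript start, occurred in 2 of the 9 windows of the set, those of Socs3 and Pigr, and in 8.30% of 32851 such windows over all genes. RefSeq sequence of build GRCm38.p6 is shown 5′ to 3′ on the gene's strand for both matches, each in a stretch of 30 bases with the motif in capitals. The Socs3 match began 154 bases before the start used by that table, at chr11:117969501-117969530 on the minus strand, inside the span that RefSeq gives the gene. The Pigr match began 39 bases after the start, at chr1:130826704-130826733 on the plus strand.
Socs3: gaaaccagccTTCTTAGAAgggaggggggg
Pigr: aatagtcaccagtagtgccTTCCTGGAAgc
A match describes these letters only, and binding was not measured.

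Among 16 measured genes of the IL-22 axis (ligand, receptors, kinases, STAT factors and inhibitors), none rose, 1 fell under vehicle and 3 fell under ICA. Their median differences were 0.04 and -0.06 against 0.01 and -0.01 over all genes. The falls under ICA were Socs3, Stat3 and Il22ra2. As a reference for this list and those below, 0.681% of all genes fell under vehicle, 2.07% under ICA and 3.62% in the mean contrast. Those called in either direction were 1.47%, 3.12% and 7.21%. Il22ra2 encodes the secreted decoy receptor that binds IL-22 and blocks it. Its level fell from 5.74 ± 0.10 (SD, n = 4) to 4.68 ± 0.12 (SD, n = 4) with T cells under vehicle, 2.09-fold (limma adjusted p = 0.00134). Under ICA it fell 1.62-fold, from 5.42 ± 0.39 (SD, n = 5) to 4.72 ± 0.09 (SD, n = 5), with a limma adjusted p of 0.00571. The Il22ra2 groups did not overlap in either comparison, a pattern that 4.21% of all genes showed in this direction under vehicle and 2.17% under ICA. Both Il22ra2 calls were kept when any 1 mouse was left out. The Il22ra2 group means were low in the signal range, below the array medians of 6.47 to 6.51. The transcript of the ligand itself, Il22, was near the bottom of the array's range in every group, with means from 2.73 to 3.30, and gave no call.

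Of 19 measured genes for the inputs of this axis (IL-6, IL-23 and type 17 cytokines and their receptors), 1 fell and none rose in each T cell comparison. That gene was Il23r, the receptor through which IL-23 drives IL-22 and IL-17 production in lymphoid cells. It fell by 0.71 ± 0.16 on the log2 scale under vehicle (limma adjusted p = 0.0315) and by 0.77 ± 0.15 under ICA (limma adjusted p = 0.00495). The vehicle call was lost in 6 of the 18 single-mouse omissions, and the ICA call in none.

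Nos2, the inducible synthase that makes nitric oxide from arginine, had the largest called fall of the set. Its values were 11.02, 11.39, 10.40 and 11.22 in marrow-only mice given vehicle and 10.24, 11.18, 11.22, 11.10 and 11.43 in those given ICA. With T cells they were 9.97, 9.99, 9.31 and 10.40 under vehicle and 9.87, 8.46, 9.37, 9.51 and 8.36 under ICA. All 5 T cell mice given ICA were below all 9 marrow-only mice, and the vehicle groups met at 10.40, the value of marrow-only mouse 3 and of T cell mouse 4. Of all genes, 2.17% had every T cell mouse below every marrow-only mouse under ICA. Under ICA Nos2 fell 3.78-fold, from 11.03 ± 0.46 (SD, n = 5) to 9.11 ± 0.67 (SD, n = 5), a log2 difference of -1.92 ± 0.28 (limma adjusted p = 0.000601). Under vehicle the difference was -1.09 ± 0.31 and did not pass (limma adjusted p = 0.0870). It passed without marrow-only ICA mouse 1, which enters only the estimate of spread (limma adjusted p = 0.0462), and without all 3 arrays that stood apart (-1.29, limma adjusted p = 0.00736).

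Duox2, the oxidase of the apical membrane that releases hydrogen peroxide, was at 11.27, 11.52, 10.82 and 11.40 in marrow-only mice given vehicle and at 10.56, 11.43, 11.63, 11.43 and 11.59 in those given ICA. In T cell mice it was at 10.71, 9.59, 10.89 and 9.81 with vehicle and at 10.13, 10.68, 9.91, 10.78 and 11.29 with ICA. Both pairs of groups overlapped: T cell vehicle mouse 3 lay just above marrow-only vehicle mouse 3, and T cell ICA mouse 5 and others lay above marrow-only ICA mouse 1. The difference was -1.00 ± 0.30 under vehicle (limma adjusted p = 0.102) and -0.77 ± 0.27 under ICA (limma adjusted p = 0.134), so neither passed alone. Without marrow-only ICA mouse 1 the ICA difference was -0.96 and passed (limma adjusted p = 0.0274). Without the 3 arrays that stood apart the vehicle difference passed, at -1.15 (limma adjusted p = 0.0314), but the ICA difference did not. In the mean over both treatments Duox2 fell 1.85-fold, by 0.89 ± 0.20 on the log2 scale (limma adjusted p = 0.00902). Duoxa2, the factor Duox2 needs to leave the endoplasmic reticulum, lies head to head with it on chromosome 2 with 159 bases between the 2 genes in RefSeq. Its probe set with 2 symbols was not used.

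Among 15 measured NADPH oxidases, their partners and nitric oxide synthases, none was called under vehicle and 2 fell under ICA, with median differences of 0.06 and 0.04. These were Nos2 and Noxa1, an activator of the epithelial oxidase Nox1, which fell by 0.48 ± 0.09 on the log2 scale (limma adjusted p = 0.00670). In the mean over both treatments 3 fell (Nos2, Noxa1 and Duox2) and 1 rose: Cybb, the oxidase of phagocytes, by 0.56 ± 0.16 (limma adjusted p = 0.0351). Macrophage markers moved with it. Their list mean was 7.99 to 8.31 on vehicle and 7.99 to 8.62 on ICA without T cells, and 8.49 to 8.83 and 8.35 to 8.83 with them. Of its 13 genes 9 rose in the mean contrast, and their part in the Cybb result, which was lost in 10 of 18 single-mouse omissions, was not tested. In tissue pieces such as these, fewer cells of a type and less RNA per cell cannot be told apart, which holds for every fall reported here.

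Genes that supply or use arginine beside Nos2 gave 1 call among 10 in the ICA pair and none in the vehicle pair. Slc7a2, an importer of arginine, rose by 0.60 ± 0.13 on the log2 scale under ICA (limma adjusted p = 0.0137). In the mean contrast Slc7a2, Arg1 and Qdpr rose and Gch1 fell. Arg1, the arginase that competes with Nos2 for arginine, rose 1.86-fold (log2 difference 0.89 ± 0.23, limma adjusted p = 0.0189), and Gch1, which starts synthesis of the Nos2 cofactor tetrahydrobiopterin, fell by 0.38 ± 0.11 (limma adjusted p = 0.0370). The Gch1 call was lost in 12 of 18 single-mouse omissions, and that of Arg1 in none.

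Of 16 antioxidant and peroxide-handling genes, none was called under vehicle and 1 fell under ICA. It was Slc7a11, the cystine importer that feeds glutathione synthesis, with a log2 difference of -0.87 ± 0.21 (limma adjusted p = 0.0250), a call lost in 6 of 18 omissions. In the mean contrast Gpx2, the glutathione peroxidase of gut epithelium, fell by 0.51 ± 0.13 (limma adjusted p = 0.0225), while Gclc and Gclm, the subunits of the enzyme that limits glutathione synthesis, rose by 0.29 ± 0.09 and 0.23 ± 0.07 (limma adjusted p = 0.0430 and 0.0456). The Gpx2 call was lost in 4 of 18 single-mouse omissions, that of Gclc in 13 and that of Gclm in 14.

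**Figure D2:**
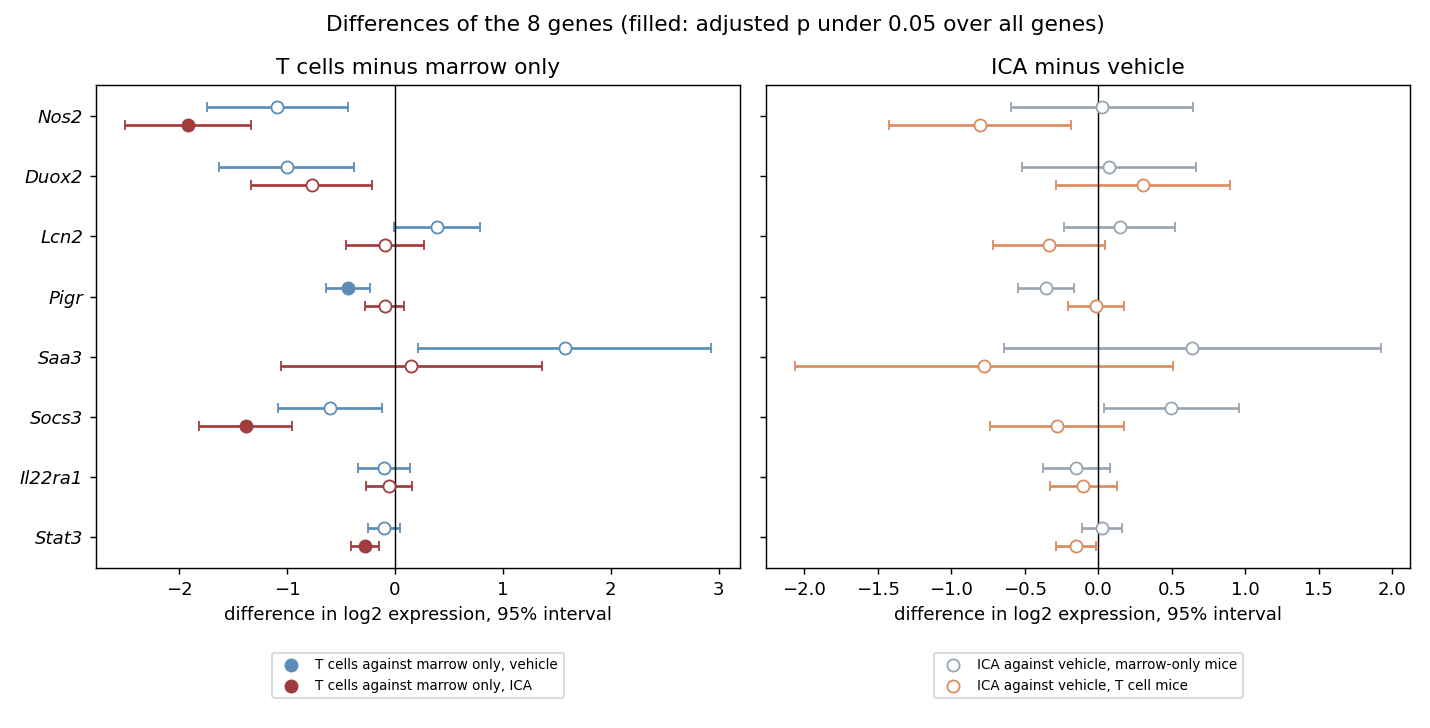
Log2 differences (horizontal axes) with 95% intervals are plotted for the 8 measured genes (vertical axis), with T cells minus marrow only on the left and ICA minus vehicle on the right; filled points have a limma adjusted p under 0.05 over all genes. On the left 4 points are filled (Pigr under vehicle, and Nos2, Socs3 and Stat3 under ICA), and on the right none is.

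Pigr carries dimeric IgA and pentameric IgM across the epithelium into the lumen. The 4 marrow-only mice given vehicle lay within a narrow range, at 12.03, 12.09, 12.01 and 12.09. Marrow-only mice on ICA were at 11.61, 11.72, 11.67, 11.78 and 11.72. With T cells the values were 11.84, 11.49, 11.42 and 11.73 on vehicle and 11.78, 11.36, 11.59, 11.82 and 11.48 on ICA. The first group thus stood above all mice of the other groups, which overlapped with each other, and 4.21% of all genes had T cell mice entirely below marrow-only mice under vehicle. With T cells under vehicle Pigr fell 1.35-fold, from 12.06 ± 0.04 (SD, n = 4) to 11.62 ± 0.20 (SD, n = 4), a log2 difference of -0.43 ± 0.10 (limma adjusted p = 0.0277). The call was lost without any of marrow-only vehicle mice 1, 2 or 4 or T cell vehicle mice 2 or 3, with a highest adjusted p of 0.109. Under ICA the difference was -0.09 ± 0.09 (limma adjusted p = 0.661).

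The 250 bases before the Pigr start, at chr1:130826434-130826683 on the plus strand (RefSeq, GRCm38.p6), are shown because Pigr is the gene of the set that the vehicle comparison called. They held no match to the STAT, NF-kB, AP-1, C/EBP or aryl hydrocarbon receptor core letters, so no base is in capitals.
Pigr: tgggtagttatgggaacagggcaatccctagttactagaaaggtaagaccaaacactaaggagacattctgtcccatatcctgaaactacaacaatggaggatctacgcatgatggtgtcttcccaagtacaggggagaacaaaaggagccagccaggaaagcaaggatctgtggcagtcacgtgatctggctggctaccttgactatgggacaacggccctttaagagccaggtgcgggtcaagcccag
The motifs were searched as TTCNNNGAA, the NF-kB consensus, TGANTCA, TTGCNNAA and GCGTG on both strands, and no 2 matches in the windows of the set overlapped.

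Of the 5 measured genes of polymeric immunoglobulin transport, Pigr alone fell under vehicle and none was called under ICA, with medians of -0.43 and -0.15. In the mean contrast 3 of the 5 fell, Pigr together with Ccl28 and Jchain. Ccl28, an epithelial chemokine that draws IgA plasma cells, fell by 0.56 ± 0.11 (limma adjusted p = 0.00233). Jchain, which joins IgA into the polymers that Pigr binds, fell by 1.47 ± 0.41 (limma adjusted p = 0.0347), a call lost in 9 of 18 omissions. Markers of B and plasma cells, a list that includes Jchain, were lower as well. Of 10 such genes 3 fell in each T cell comparison and none rose. The falls were Cd79a and Cd79b in both, with Fcrla under vehicle and Ms4a1 under ICA. The list mean, which contains Jchain, was 7.20 to 7.33 in marrow-only and 6.06 to 6.78 in T cell mice given vehicle. It was 6.82 to 7.71 and 5.98 to 7.26 in those given ICA. The part of these markers in the Jchain and Pigr results was not tested.

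Lcn2, a secreted protein that binds bacterial iron carriers and is made by epithelium and neutrophils, did not follow the falls. It read 7.88, 8.29, 7.64 and 8.02 in marrow-only mice given vehicle and 7.55, 8.36, 8.39, 7.88 and 8.34 in those given ICA. T cell mice read 8.16, 8.00, 8.38 and 8.85 with vehicle and 7.75, 8.27, 8.08, 7.85 and 8.11 with ICA. The highest of all 18 values was that of T cell vehicle mouse 4, and the groups overlapped. The T cell difference was 0.39 ± 0.19 under vehicle, with a 95% interval from -0.01 to 0.79, and -0.09 ± 0.17 under ICA, with an interval from -0.45 to 0.27 (limma adjusted p = 0.400 and 0.856).

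Saa3, an acute-phase serum amyloid A made locally in gut and by macrophages, had the widest spread of the set. Marrow-only mice given vehicle read 8.66, 9.75, 7.86 and 8.83, and those given ICA read 6.90, 10.75, 10.97, 8.43 and 10.02. T cell mice read 9.18, 10.73, 10.70 and 10.78 with vehicle and 8.89, 10.44, 9.52, 9.29 and 9.70 with ICA. Of the T cell mice given vehicle 3 lay close together above all marrow-only mice given vehicle, and the other one, mouse 1, lay inside their range. The vehicle difference of 1.57 ± 0.65, a 2.97-fold higher level, did not pass (limma adjusted p = 0.282), but it did in a model of the 2 vehicle groups alone (limma adjusted p = 0.0470). Under ICA the difference was 0.15 ± 0.58, and it was -0.47 without marrow-only ICA mouse 1, whose 6.90 was the lowest Saa3 value of all mice.

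Neutrophil and macrophage markers were measured beside Lcn2 and Saa3. The list of 15 neutrophil markers includes Lcn2 itself, so for Lcn2 it is not a separate measure. Its mean was 5.86 to 6.24 without and 6.11 to 6.78 with T cells under vehicle, and 5.74 to 6.37 and 5.97 to 6.48 under ICA. Of these 15 genes 1 rose under vehicle and none under ICA, and of the 13 macrophage markers 5 rose under vehicle and 3 under ICA. Their part in the levels of Lcn2 and Saa3 was not tested.

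The C/EBP motif, searched as TTGCNNAA on both strands, occurred in 3 of the 9 windows of the set (Lcn2, Saa1 and Saa3) and in 10.8% of all 32851 windows. The 250 bases before the Lcn2 start, at chr2:32387740-32387989 on the minus strand, and 30 bases around the Saa3 match, at chr7:46715757-46715786 on the minus strand and inside the span RefSeq gives Saa3, are shown with the match in capitals.
Lcn2: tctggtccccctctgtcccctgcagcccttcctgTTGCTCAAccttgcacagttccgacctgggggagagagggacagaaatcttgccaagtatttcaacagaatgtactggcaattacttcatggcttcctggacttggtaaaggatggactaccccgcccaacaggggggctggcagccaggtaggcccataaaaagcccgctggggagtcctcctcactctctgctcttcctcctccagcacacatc
Saa3: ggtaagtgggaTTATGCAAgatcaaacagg
The Lcn2 match began 216 bases before the start, and the Saa3 match, which reads in the opposite direction, 99 bases before the start used by the table. Of the other motifs, NF-kB had a match in 1 of the 9 windows (Il22ra1) against 8.46% of all windows, AP-1 in 2 (Duoxa2 and Il22ra1) against 7.81%, and the aryl hydrocarbon receptor core in 2 (Duoxa2 and Stat3) against 32.4%.

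Of 20 measured acute-phase and NF-kB inducible genes, 2 fell and none rose under vehicle, and 3 fell and 1 rose under ICA, with medians of 0.06 and -0.15. Nfkbiz, a nuclear partner of NF-kB, fell by 0.68 ± 0.11 on the log2 scale under vehicle (limma adjusted p = 0.00395) and by 0.59 ± 0.10 under ICA (limma adjusted p = 0.00228). Zc3h12a, a ribonuclease that destroys inflammatory transcripts, fell by 0.68 ± 0.13 and 0.44 ± 0.11 (limma adjusted p = 0.00867 and 0.0338), and its call under ICA was lost in 7 of 18 single-mouse omissions. The inhibitor Nfkbia fell under ICA, by 0.45 ± 0.07 (limma adjusted p = 0.00156). The acute-phase protein haptoglobin, Hp, went the other way and rose 3.76-fold under ICA, from 7.66 ± 0.98 (SD, n = 5) to 9.57 ± 0.44 (SD, n = 5), with a limma adjusted p of 0.00685.

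The epithelial genes that IL-22 and STAT3 are known to induce were a list of 18 measured genes that includes Lcn2, Saa3 and Pigr. It had 4 falls under vehicle and 8 under ICA and no rise in either. Over all genes 0.681% fell under vehicle and 2.07% under ICA. The list medians were -0.15 and -0.21, against 0.01 and -0.01 over all genes. Il18, an epithelial cytokine, fell 2.38-fold under vehicle (limma adjusted p = 0.0129) and 3.14-fold under ICA (limma adjusted p = 0.000342). Bcl3, a nuclear partner of NF-kB that STAT3 induces, fell by 0.64 ± 0.13 and 0.70 ± 0.12 on the log2 scale (limma adjusted p = 0.0186 and 0.00189). Under vehicle the Il18 call was lost in 2 of 18 omissions and the Bcl3 call in 5, and under ICA both were kept. Fut2, which fucosylates the epithelial surface, fell 7.72-fold under ICA, from 10.31 ± 1.54 (SD, n = 5) to 7.36 ± 0.54 (SD, n = 5), with a limma adjusted p of 0.00316.

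The antimicrobial lectins of the Reg3 family belonged to these falls. Reg3b fell by 0.93 ± 0.19 on the log2 scale under ICA (limma adjusted p = 0.00860), and Reg3a fell by 1.18 ± 0.25 under vehicle (limma adjusted p = 0.0215). The Reg3a call under ICA, at an adjusted p of 0.0485, was lost in 13 of 18 omissions, and that under vehicle in 5 of 18. Reg3g, Ceacam1 and Lrg1, which fell under ICA, and Pigr, under vehicle, complete the calls of the list, with losses in 8 of 18 omissions for Lrg1, 2 for Ceacam1 and none for Reg3g. Over the single-mouse omissions the number of falls ranged from 0 to 5 under vehicle, with 0 when marrow-only vehicle mouse 1 or 4 was left out, and from 5 to 8 under ICA. Without the 3 arrays that stood apart it was 8 in both, where 664 and 1515 of 22180 genes passed in either direction. In the mean contrast 9 of the 18 fell, against 3.62% of all genes, and 8 or 9 fell in every omission. Called or not, 11 of the 18 were lower and 7 higher in that contrast. The contrast was chosen after the data were seen, and the list with earlier results of these data known. The count is thus a description and not an independent test.

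**Figure D3:**
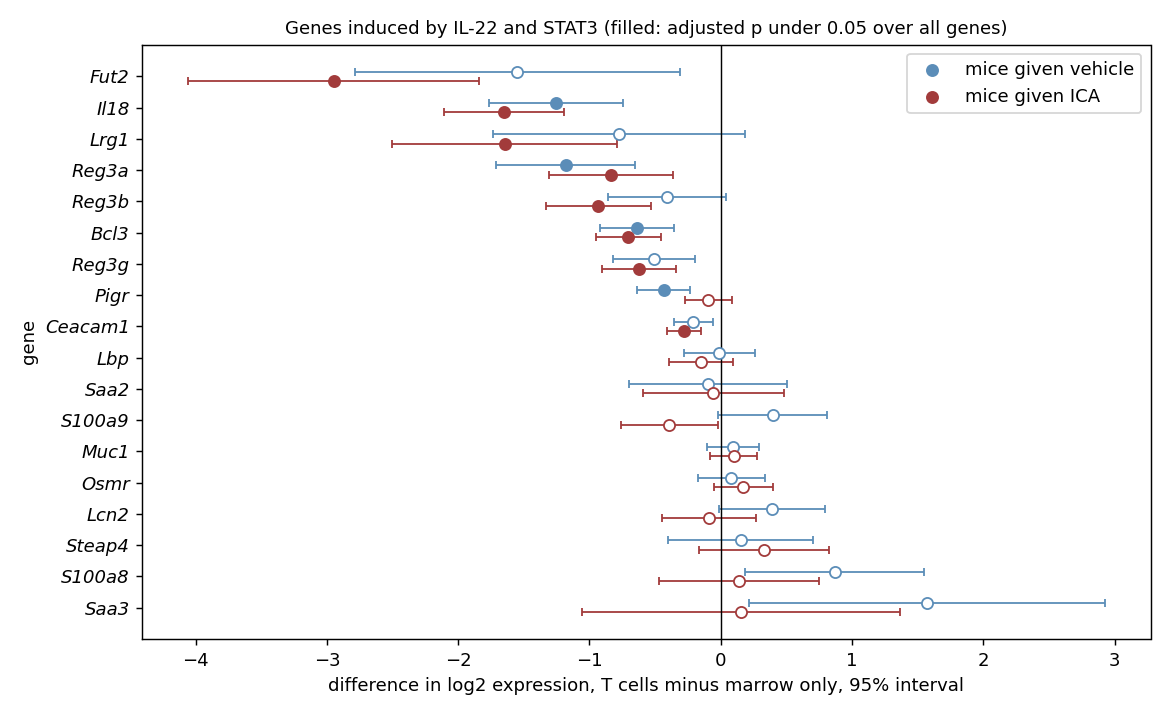
The log2 difference of T cells minus marrow only (horizontal axis, with 95% intervals) is plotted for 18 genes induced by IL-22 and STAT3 (vertical axis), in mice given vehicle and in mice given ICA; filled points have a limma adjusted p under 0.05 over all genes. Filled points number 4 under vehicle and 8 under ICA, all left of 0, while Saa3 and S100a8 lie to the right with open points.

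Paneth cells, which also secrete antimicrobial proteins, and the epithelium as a whole were checked beside these falls. Of 9 Paneth cell markers 3 fell under vehicle and 2 under ICA. The list mean was 11.76 to 11.90 in marrow-only and 10.12 to 11.97 in T cell mice given vehicle, and 11.49 to 11.82 and 10.76 to 11.54 in those given ICA. The 11.97 was that of T cell vehicle mouse 1. The others of that group, at 10.12, 10.79 and 10.94, lay below all marrow-only mice given vehicle. Of 12 epithelial markers 1 fell in each comparison, Elf3, an epithelial transcription factor, by 0.39 ± 0.09 under vehicle and 0.65 ± 0.08 under ICA (limma adjusted p = 0.0294 and 0.000173). The Elf3 call under vehicle was lost in 6 of 18 omissions, and that under ICA in none. Smooth muscle markers had a mean of 10.23 to 10.46 in marrow-only mice and 10.50 to 10.89 in T cell mice, and 6 of the 8 rose under ICA. T cell markers rose in 4 of 8 under vehicle, and under ICA 2 rose and 1 fell. Of 7 ileal markers 2 rose under ICA, and of 11 markers of stomach, duodenum or colon 1 fell there, Slc40a1, the iron exporter of the duodenum, by 2.00. The ileal list mean was 10.24 to 10.78 in marrow-only and 10.64 to 10.85 in T cell mice given vehicle. Under ICA it was 9.53 to 10.74 and 10.54 to 10.79. Marrow-only vehicle mouse 3 (10.78) and marrow-only ICA mouse 1 (10.74) had the highest ileal means of their groups. The mean for the other segments was 6.19 to 6.35 and 5.99 to 6.43 under vehicle, and 6.11 to 6.91 and 5.92 to 6.61 under ICA. The part of these markers in the falls was not tested.

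ICA against vehicle was compared within each graft. In T cell mice none of the 8 measured genes was called, where 0.0135% of all genes were, and 2 of 8 had an unadjusted p under 0.05, against 6.89% of all genes. These were Nos2, with a log2 difference of -0.80 ± 0.30 (limma adjusted p = 0.570), and Stat3, with -0.15 ± 0.07 (limma adjusted p = 0.663). Their groups overlapped: T cell ICA mouse 1, at 9.87, had a higher Nos2 value than T cell vehicle mouse 3, at 9.31. The Lcn2 and Saa3 differences were -0.34 ± 0.18 and -0.78 ± 0.62, with 95% intervals from -0.72 to 0.04 and from -2.06 to 0.51. Duox2 differed by 0.31 ± 0.28, the one gene of the 8 with a higher mean under ICA in T cell mice.

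In marrow-only mice none of the 8 was called either, where 0.00451% of all genes were, and 2 of 8 had an unadjusted p under 0.05, against 7.52% of all genes. Pigr was lower in all 5 mice given ICA than in all 4 given vehicle, a separation that 0.825% of all genes showed in this direction. Its means were 11.70 ± 0.06 (SD, n = 5) and 12.06 ± 0.04 (SD, n = 4), and the difference of -0.36 ± 0.09 had an unadjusted p of 0.000953 in limma and an adjusted p of 0.561, rank 36 of all genes. Socs3 differed by 0.50 ± 0.22 (limma adjusted p = 0.644). For Nos2 and Duox2 the differences were 0.02 ± 0.30 and 0.07 ± 0.28, with 95% intervals from -0.59 to 0.64 and from -0.52 to 0.67.

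Whether ICA changed the T cell difference was tested by the interaction of graft and treatment. No gene passed, among the 8 or among all genes (0% called), and 1482 genes (6.68%) had an unadjusted p under 0.05. Of the 8, Pigr (0.34 ± 0.13) and Socs3 (-0.78 ± 0.31) were among those, with limma adjusted p of 0.71 and 0.724. The interaction for Nos2 was -0.83 ± 0.42 (limma adjusted p = 0.763) and for Saa3 -1.42 ± 0.87 (limma adjusted p = 0.801). A call under 1 treatment and not under the other is therefore not shown to be a difference between treatments for any of the 8. None of the 8 pathway lists had a call in either ICA comparison or in the interaction.

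The mean of the T cell differences over both treatments used all 18 mice. Nos2 fell 2.83-fold, with a 95% interval of the log2 difference from -1.94 to -1.07 (limma adjusted p = 0.000152), and Socs3 by 0.99 ± 0.16, 1.99-fold (limma adjusted p = 0.000433). Stat3 fell by 0.19 ± 0.05 and Pigr by 0.26 ± 0.07 (limma adjusted p = 0.0147 and 0.0160). Lcn2 (0.15 ± 0.13), Saa3 (0.86 ± 0.44) and Il22ra1 (-0.08 ± 0.08) did not pass, with limma adjusted p of 0.594, 0.282 and 0.657. The 5 calls, Duox2 included, were kept in each of the 18 single-mouse omissions.

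Mice of 1 group also differed from each other, and it was asked which of the 8 genes varied together among them. For each of the 28 pairs, deviations from group means over 18 mice were correlated, with permutation of mice within groups and adjustment over the 28 pairs. Lcn2 and Saa3 varied together most closely (Pearson r = 0.82, permutation p = 0.00011, adjusted p = 0.00308; Spearman rho = 0.81, adjusted p = 0.0106). The r was 0.82 without the 2 mice farthest from the median of Lcn2 and 0.68 without the 3 arrays that stood apart. Nos2 and Pigr had r = 0.73 (permutation p = 0.00321, adjusted p = 0.0340) and rho = 0.70 (adjusted p = 0.0770), with r = 0.72 without the 2 mice farthest from the median of Nos2 and r = 0.74 without the 3 arrays that stood apart.

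Il22ra1 varied against both Saa3 (r = -0.74, permutation-based adjusted p = 0.0340) and Socs3 (r = -0.73, adjusted p = 0.0427), but these relations weakened when a few mice were left out. Without the 2 mice farthest from the median of Saa3 or of Socs3, r was -0.61 and -0.43. Without the 3 arrays that stood apart r was -0.38 and -0.27, and the rho of -0.67 and -0.59 did not pass (adjusted p = 0.0770 and 0.150). In all, 4 of 28 pairs passed by r and 1 by rho. Nos2 and Duox2, the 2 oxidant-producing enzymes, had r = -0.13 within groups, and r = -0.58 without the 3 arrays that stood apart.

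**Figure D4:**
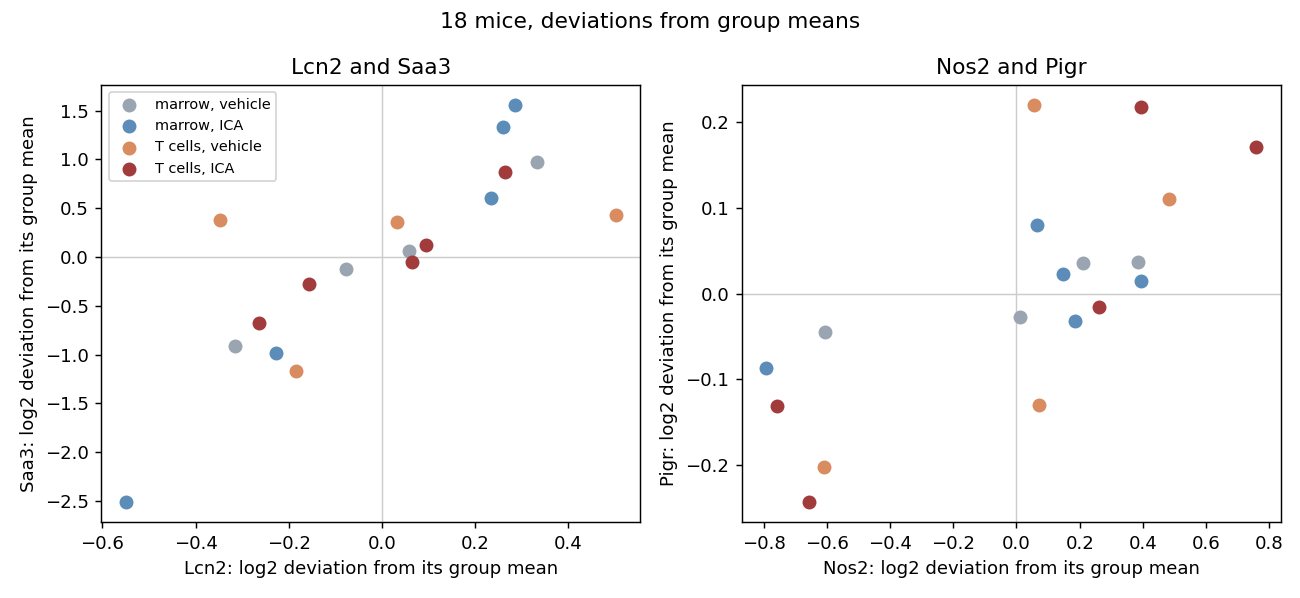
Each of 18 mice is plotted by the log2 deviation of 2 genes from their group means, Lcn2 (horizontal) against Saa3 (vertical) on the left and Nos2 against Pigr on the right, with colours for the 4 groups. Lcn2 and Saa3 rise together (r = 0.82), with marrow-only ICA mouse 1 at the lower left, and Nos2 and Pigr do so more loosely (r = 0.73).

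Across all 18 arrays, with group differences left in, the genes whose levels most resembled each member were listed by Pearson r as a description. For Nos2 they were Reg3b (0.95), Slc40a1 (0.94) and Tc2n (0.94), for Socs3 Arhgef10l (0.97), Unc5cl (0.96) and Pla2g5 (0.96), and for Stat3 Gda (0.94), Noct (0.91) and Abcb10 (0.86). Duox2 was most like Car4 (0.94), Gm19950 (0.88) and Abhd17b (0.88). Lcn2 and Saa3 shared a neighbour, Ciita (0.85 and 0.94), the regulator of MHC class II genes, beside Acod1 (0.89) and Sirpb1a (0.85) for Lcn2 and Traf1 (0.92) and Tnfrsf1b (0.92) for Saa3. Pigr was most like Etl4 (0.89), Sort1 (0.86) and Il17re (0.84), and Il22ra1 had lower values, with Acy3 (0.81), Bmp8a (0.80) and Clec2e (0.80).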

How the data were processed

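Ileal RNA of 18 mice, each labelled a biological replicate, was measured on whole-transcript Affymetrix arrays, 1 for each mouse. The deposited values were taken as log2 and normalized by RMA, a step that the submitters' processing notes name beside Partek and GenomeStudio, without versions. The log base is not given in the sources used here and was taken from the range of 1.29 to 14.08. RMA draws all arrays to 1 distribution, so a shift of most genes at once would not be seen. Of 41345 probe sets, 23521 had 1 symbol in the platform annotation, and a gene was read on the one with the highest mean.

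A linear model with 4 group means was fitted to 22180 genes with limma 3.58.1 in R 4.3.3, with a trended prior variance (14 residual and 6.1 prior degrees of freedom), two-sided, with Benjamini-Hochberg adjustment over all genes, and tested on simulated data. The alternatives tried were other normalization, filters, probe-set rules, prior variances, array weights, the replicate block, omissions of mice, and the 2 groups compared alone. The number of arrays limits the precision.

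The members and the 17 lists (212 of 237 entries measured) were chosen with earlier results of these data known. The text names all members, up to 4 called genes per pathway list and comparison, and up to 3 most similar genes per member. Reg3g, Ceacam1, Lrg1 and Reg3a under ICA were added beyond that rule after their values were seen. Promoter windows from RefSeq matched 9 of 10 members by symbol. Permutations within groups numbered 100000. Figures were drawn with matplotlib 3.10.9.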

Additional observations from a re-analysis of the deposited data

Results flagged for a closer look

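In all, 3 of 32 combinations of gene and group held 1 mouse far from the rest by Dixon's rule at the 95% level, and chance flags about 1 in 20. Nos2 in marrow-only mice given ICA was 10.24 in mouse 1, and the next lowest value was 11.10. Duox2 in the same mouse was 10.56, and the next lowest was 11.43. Saa3 in T cell mice given vehicle was 9.18 in mouse 1, and the next lowest was 10.70. Causes were not tested.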

How the results depend on the processing

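The number of the 8 genes changed with T cells under vehicle was 1 as reported, where 327 of 22180 genes passed. It was 3 in a model of the 2 groups compared (Nos2, Pigr and Saa3), where 824 genes passed. With array weights it was 3 (Nos2, Duox2 and Pigr), where 1074 passed. Without the 3 arrays that stood apart it was 4, where 664 passed. Calls over all genes thus rose in the same settings. Over single-mouse omissions the number ranged from 0 to 2, and the cause was not tested. Pigr, the call as reported, was lost in 5 of 18 such omissions. Duox2 passed there with array weights (limma adjusted p = 0.0356) and without the 3 arrays (0.0314), Nos2 in the model of 2 groups (0.0232) and with array weights (0.0176), and Socs3 without the 3 arrays (-0.87, 0.00306). The counts under ICA (3, and 2 to 4 over alternatives), in the mean contrast (5 throughout) and in the ICA comparisons and interaction (0 throughout) stayed within 1.5 times. A model of 2 groups gives no interaction or mean contrast. Differences that reversed were all uncalled as reported. Over the single-mouse omissions, ICA in marrow-only mice ranged from -0.178 to 0.222 for Nos2, from -0.0707 to 0.266 for Duox2 and from -0.0158 to 0.0628 for Stat3. ICA in T cell mice ranged from -0.0833 to 0.0575 for Pigr, T cells under ICA from -0.475 to 0.544 for Saa3 and from -0.109 to 0.0415 for Il22ra1, and the Il22ra1 interaction from -0.0366 to 0.143. Pigr under ICA in T cell mice was 0.0124 after a further quantile normalization. Without the 3 arrays Saa3 under ICA was -0.307, Il22ra1 0.0152 and Stat3 for ICA in marrow-only mice -0.0265. The replicate block turned Duox2 for ICA in marrow-only mice to -0.0512. As a check on pairing by mouse number, 3 of 25 same-numbered pairs had deviations correlated above 0.1 (range -0.142 to 0.201). Pairs with different numbers were not compared, so pairing is not excluded. With the replicate block the counts of changed genes stayed at 1, 3, 0, 0, 0 and 5. All-gene counts depended more on the settings: 94 to 1074 genes changed with T cells under vehicle, 321 to 1515 under ICA, 1156 to 2543 in the mean contrast, 1 to 49 for ICA in T cell mice, 0 to 119 in marrow-only mice and 0 to 3 for the interaction. The Il22 transcript, at the low end of the signal range, limits what can be said of the ligand.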
